A study of Mus musculus with 4 samples.

Results

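The 9 genes described here, Sult1a1, Sult1b1, Sult1c2, Sult1d1, Sult1e1, Sult2a2, Sult2b1, Sult3a1 and Sult5a1, encode cytosolic sulfotransferases and were read by 10 probe sets, out of 18193 genes with a named probe set on the array. A probe set is a group of short oligonucleotides on the array that together read 1 transcript. Every probe set whose only annotated gene symbol is a member was taken, and the brighter probe set by mean log2 signal over the 4 arrays stood for Sult1d1, the 1 gene with a pair. The members were chosen with results of the comparison below already known, so their differences are given as a description and without a test.

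Cytosolic sulfotransferases transfer a sulfonate group from the donor PAPS (3'-phosphoadenosine-5'-phosphosulfate) to hydroxyl or amino groups of small molecules, which makes steroids, bile acids, thyroid hormones, catecholamines, phenols and drugs more soluble and usually inactive. They are phase II enzymes of the hepatocyte cytosol, distinct from the Golgi sulfotransferases that modify glycans and proteins. In mice the transcripts of Sult2a2 and Sult3a1 are known to be abundant in adult female liver and scarce in male liver, under the control of the sex-dependent pattern of growth hormone secretion.

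Transcripts were measured on Affymetrix arrays hybridised with RNA of whole liver slices taken from 4 male mice aged 9 months, which were kept on chow in a pathogen-free facility without any intervention. The parents were the inbred strains AJ and B6. An AJ dam crossed to a B6 sire gave the AB6F1 males (n = 2), and the reverse mating, B6 dam by AJ sire, gave the B6AF1 males (n = 2). The labels call the mice of a cross biological replicates. Both crosses carry 1 set of autosomes from each inbred strain. They differ in which strain gave the X, Y and mitochondrial chromosomes. The strains of the maternal and paternal alleles of imprinted genes are also swapped. All 9 members lie on autosomes, by RefSeq genes on mouse assembly GRCm38.p6: chromosome 5 (Sult1b1, Sult1d1 and Sult1e1), chromosome 7 (Sult1a1, Sult2a2 and Sult2b1), chromosome 8 (Sult5a1), chromosome 10 (Sult3a1) and chromosome 17 (Sult1c2). The source identifiers of the mice form separate blocks by cross, so the cross and any batch of collection cannot be told apart.

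The values are MAS5 signals, linear brightness values on a scale where every array had a trimmed mean of 500. Array medians were 78.0 and 75.9 in AB6F1, against 72.8 and 67.2 in B6AF1. Differences are AB6F1 minus B6AF1 on the log2 scale, with the standard error (SE) of a limma fit across 11748 genes whose mean signal was at least 60.9, the median of all probe sets. The sample was liver by its markers: all 9 hepatocyte markers with a probe set passed this filter, and albumin (Alb) gave signals of 40787.9 and 38514.3 in AB6F1 against 40357.2 and 48624.7 in B6AF1. The summed signal of the hepatocyte markers, from 327272 to 358452 in AB6F1 and from 347175 to 399942 in B6AF1, overlapped between the crosses. All 9 of these markers had a lower mean in AB6F1 (median -0.10); limma called 0 of them, and 0 had an unadjusted p under 0.05. Summed macrophage markers were higher in AB6F1 (9171 to 14115 over 10 genes) than in B6AF1 (5756 to 7895), as were summed stellate cell markers (14070 to 17161 against 10290 to 10899 over 9 genes), and no marker of either list was at 0. All 9 tested macrophage markers and 8 of 9 stellate cell markers were higher in AB6F1; limma called 0 of the former (7 at an unadjusted p under 0.05) and 2 of the latter, the collagens Col1a2 and Col3a1. Summed adipocyte markers were also higher in AB6F1 (681 to 812 against 436 to 529 over 4 genes, of which 1 passed the filter). So were pancreatic acinar markers (571 to 593 against 418 to 472 over 6 genes, 4 past the filter). Sums were lower for squamous epithelium markers (728 to 815 against 882 to 904 over 6 genes, 3 past the filter). Sums overlapped for cholangiocyte, endothelial and blood markers. Summed stomach and intestine markers were 17688 in AB6F1 replicate 2, against 6730 in replicate 1 and 9952 and 9208 in B6AF1. The part of these other cells in the differences below was not tested. In whole liver, fewer cells of a type and less RNA per cell cannot be told apart.

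Promoter windows of 250 bases upstream of the annotated start, from RefSeq on GRCm38.p6, were found for 8 of the 9 members, all but Sult2a2, in 10 windows. The windows of Sult3a1 and Sult5a1 are shown because these genes had the largest differences in each direction among the members with a window. Letters in capitals mark matches to the 4 short motifs searched on both strands: TTCNNNGAA (STAT factors, which growth hormone activates), ATTGAT (the core of Onecut and Cux factors), AGGTCA (nuclear receptors) and TATAAA (the TATA box).
Sult3a1, chr10:33857472-33857721, plus strand: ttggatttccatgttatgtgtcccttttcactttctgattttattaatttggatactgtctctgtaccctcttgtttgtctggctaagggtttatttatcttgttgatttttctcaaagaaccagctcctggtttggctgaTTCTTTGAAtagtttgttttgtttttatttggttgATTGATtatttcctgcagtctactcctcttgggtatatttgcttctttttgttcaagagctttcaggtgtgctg
Sult5a1, chr8:123158281-123158530, minus strand: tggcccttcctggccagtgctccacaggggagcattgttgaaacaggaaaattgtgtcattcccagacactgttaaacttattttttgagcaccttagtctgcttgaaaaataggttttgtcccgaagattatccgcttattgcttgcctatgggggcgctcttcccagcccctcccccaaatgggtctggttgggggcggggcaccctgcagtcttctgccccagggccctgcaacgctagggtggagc
The Sult3a1 window held 1 match to TTCNNNGAA, which begins 109 bases upstream of the start, and 1 match to ATTGAT, 74 bases upstream, and these matches do not overlap. The Sult5a1 window held none of the 4 motifs. Over the 10 member windows, TTCNNNGAA and ATTGAT were found in 1 each, AGGTCA in 2 (1 window of Sult1b1 and that of Sult1e1) and TATAAA in 0. Of all 32851 windows of the same length, 7.02% held TTCNNNGAA, 6.72% ATTGAT, 14% AGGTCA and 12.4% TATAAA. Such a match describes the letters only.

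The large positive differences were those of 2 single genes, Sult2a2 and Sult3a1. Sult2a2 sulfonates hydroxysteroids such as dehydroepiandrosterone, and bile acids. Its signals were 7770.7 and 13875.1 in AB6F1, against 24.8 and 65.4 in B6AF1. Both AB6F1 mice were high and both B6AF1 mice were low, and the lower AB6F1 signal was 119 times the higher B6AF1 signal. The log2 difference was 8.01 ± 0.46 (SE), the highest of the 11748 genes. Because 1 of the B6AF1 signals lay below the filter signal and the other just above it, the level in that cross is poorly determined: the mice of B6AF1 were 1.40 apart on the log2 scale and those of AB6F1 0.84. The probe set is annotated to Sult2a2 alone, but the Sult2a genes are close relatives that lie side by side on chromosome 7, and related transcripts may bind it.

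Sult3a1, which transfers sulfonate to amines, was next in rank. Its signals were 1002.9 and 535.5 in AB6F1, against 29.1 and 42.1 in B6AF1, with both B6AF1 arrays below the filter signal. The crosses did not overlap, and the lower AB6F1 signal was 12.7 times the higher B6AF1 signal. On the log2 scale the difference was 4.39 ± 0.40 (SE), the second of the 11748 genes from the highest. The AB6F1 mice were in opposite order for the 2 genes: replicate 2 was the higher for Sult2a2 and replicate 1 for Sult3a1, by 0.91 on the log2 scale. With 16 added to every signal, which dampens dim values, the differences were 7.50 for Sult2a2 and 3.87 for Sult3a1. Leaving out 1 array at a time gave 7.31 to 8.71 for Sult2a2 and 3.94 to 4.84 for Sult3a1.

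Sult5a1, a family member whose substrates are less well known, was the opposite case. Its signals were 266.3 and 294.3 in AB6F1, against 1098.4 and 1191.2 in B6AF1. All 4 signals lay well above 60.9, and the mice of a cross were within 0.14 on the log2 scale. The mean signal was 280 ± 19.8 (SD, n = 2) in AB6F1, against 1145 ± 65.6 (SD, n = 2) for B6AF1. The signal was 4.09-fold higher in B6AF1, a log2 difference of -2.03 ± 0.17 (SE), which ranked 13 from the lowest of all genes. Of the 3 large differences its size on the log2 scale changed least when 1 array was left out, with values from -2.10 to -1.96.

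**Figure D1:**
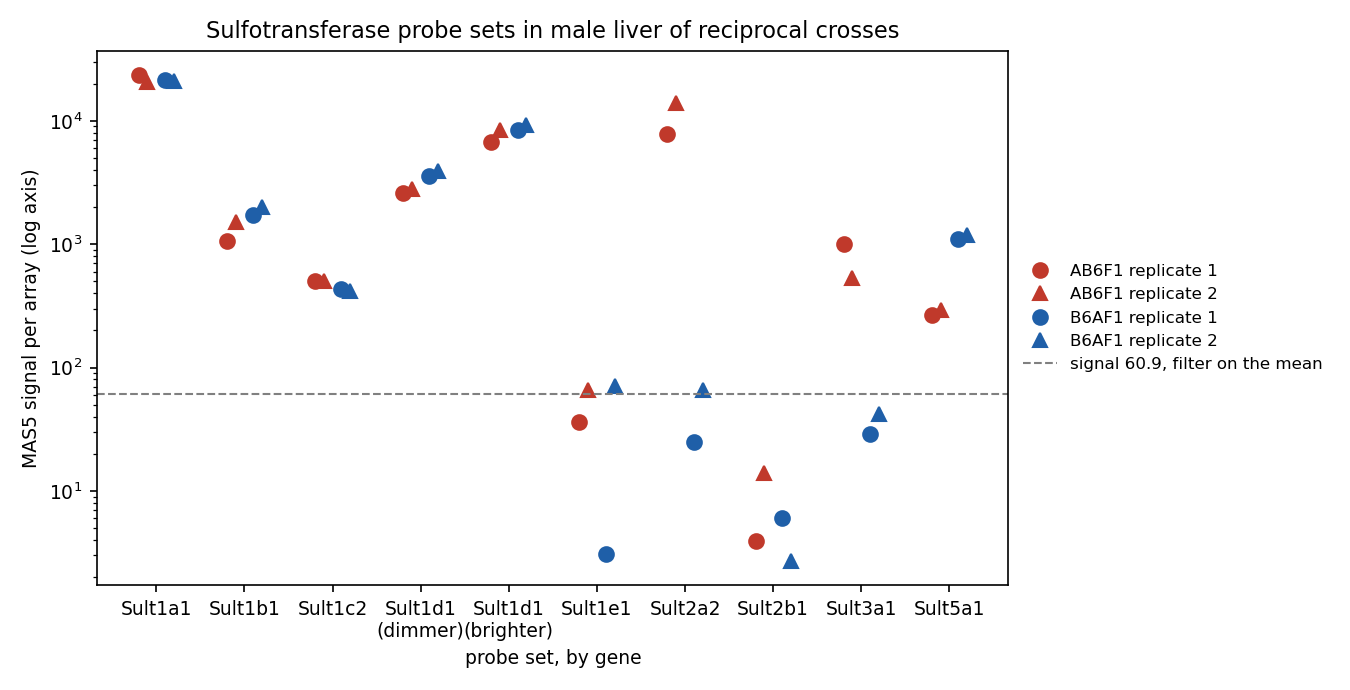
MAS5 signal on a log axis for each of the 10 sulfotransferase probe sets, 1 point per array, with AB6F1 in red and B6AF1 in blue; circles are replicate 1, triangles replicate 2, and the dashed line is the filter signal of 60.9. Sult2a2 and Sult3a1 are far higher in both AB6F1 mice and Sult5a1 is higher in both B6AF1 mice, while for Sult1a1 the crosses overlap.

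Members of the Sult1 branch, which handle phenols, catecholamines, thyroid hormones and oestrogens, differed far less where they passed the filter. Sult1a1, the main phenol sulfotransferase, had signals of 23484.3 and 20538.7 in AB6F1, against 21252.3 and 21087.1 in B6AF1. The B6AF1 mice lay between the AB6F1 mice, and the log2 difference was 0.05 ± 0.12 (SE). Its sign was not settled: it turned when AB6F1 replicate 1 was left out, to -0.04, and centring each array on its median gave -0.08, a scaling that moved the median of all genes from 0.02 to -0.11.

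Sult1b1, which acts on thyroid hormones and small phenols, had signals of 1062.3 and 1504.5 in AB6F1, against 1737.5 and 1982.9 in B6AF1. The crosses did not overlap, though the AB6F1 mice were 0.50 apart on the log2 scale, close to the difference between the crosses of -0.55 ± 0.19 (SE). Leaving out AB6F1 replicate 1 changed it to -0.30, and leaving out replicate 2 to -0.81.

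Sult1d1, a catecholamine sulfotransferase of rodents, was read by a pair of probe sets that were both lower in AB6F1. The brighter gave 6783.6 and 8433.4 in AB6F1, against 8450.6 and 9194.4 in B6AF1, a log2 difference of -0.22 ± 0.14 (SE). AB6F1 replicate 2 lay just under B6AF1 replicate 1 there. The dimmer gave 2581.6 and 2821.3 in AB6F1, against 3579.8 and 3884.9 in B6AF1, with a log2 difference of -0.47 ± 0.13 (SE) in a fit of all probe sets. Its crosses were clearly apart, so the 2 probe sets had the same sign but unlike sizes.

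Sult1c2, of a subfamily that acts on phenols and hydroxylated arylamines, had signals of 498.2 and 503.8 in AB6F1, against 434.6 and 413.6 in B6AF1. Both AB6F1 mice were higher, but the log2 difference was only 0.24 ± 0.17 (SE) and shrank to 0.10 after median centring.

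The oestrogen sulfotransferase Sult1e1 and the cholesterol and pregnenolone sulfotransferase Sult2b1, best known from skin, had mean signals below the filter and were not part of the fit across 11748 genes. Sult1e1 signals were 36.3 and 65.3 in AB6F1, against 3.1 and 70.7 in B6AF1. The B6AF1 mice spanned the AB6F1 mice and lay 4.51 apart on the log2 scale, and a fit of all probe sets without the filter gave 1.72 ± 1.49 (SE). Sult2b1 signals were 3.9 and 14.0 in AB6F1, against 6.0 and 2.7 in B6AF1, all far below 60.9, with a difference of 0.88 ± 1.15 (SE). No order between the crosses can be read from either gene.

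**Figure D2:**
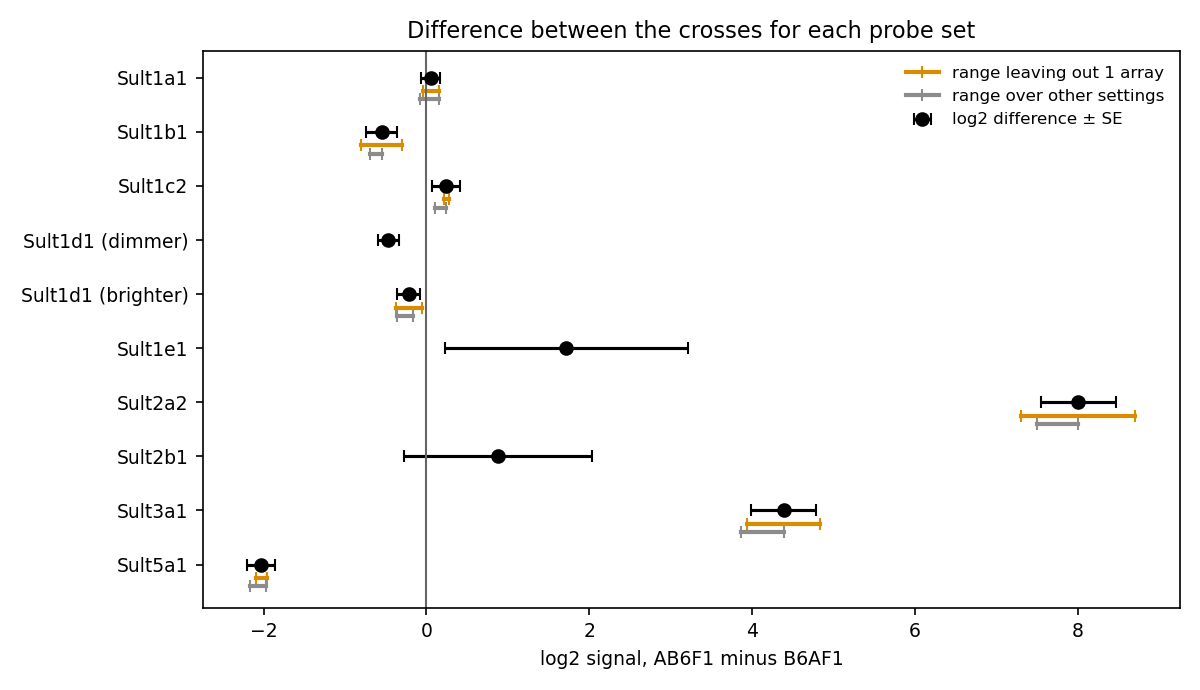
Log2 difference between the crosses (AB6F1 minus B6AF1) for each probe set, with SE as black bars; orange lines span the values with 1 array left out and grey lines the values under the other processing settings. The lines stay right of 0 for Sult2a2 (7.31 to 8.71) and Sult3a1, left of 0 for Sult5a1 and Sult1b1, and cross 0 for Sult1a1.

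Set against the whole table, 3 of the 7 tested members, Sult2a2, Sult3a1 and Sult5a1, were among the genes past a limma adjusted p of 0.05, where 25 of 11748 genes or 0.213% passed, 0.136% higher and 0.0766% lower in AB6F1. As the members were chosen from this comparison, these calls are no test of them and nothing is read from that share. Sult3a1 reached the filter only through its AB6F1 signals, as both of its B6AF1 signals lay below 60.9. For Sult2a2, 1 of the B6AF1 signals lay below it. Signals of the crosses did not overlap for 6 of the 7, against 41.2% of all genes, though for Sult1d1 the nearest arrays, at 8433.4 and 8450.6, were nearly equal; 3 were higher in AB6F1 (22.5% of all genes) and 3 lower (18.7%), and nothing is read from these counts either. The median log2 difference of the 7 was 0.05, beside 0.02 over all genes. Calls changed when 1 array was left out and with the variance model. Leaving out 1 array leaves 1 mouse in a cross, so the spread between mice is then measured in the other cross alone. Calls of such fits are not read, and only the sizes of differences are given. When the variance was moderated without its trend with intensity, 0 members and 0 genes passed limma, with 1044 genes at an unadjusted p under 0.05. With 2 arrays against 2, an exact permutation test of a single gene cannot give a p below 0.333.

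Of 12 further cytosolic sulfotransferases of the mouse that were listed, 4 had a named probe set, and Sult2a8 was the 1 above the filter. Sult2a8, a bile acid sulfotransferase of mouse liver, lies in the same cluster of chromosome 7 as Sult2a2. Its signals were 18278.6 and 20769.1 in AB6F1, against 25926.6 and 28575.6 in B6AF1. Both B6AF1 mice were higher, opposite to Sult2a2, but the log2 value of -0.48 ± 0.12 (SE) did not pass limma (adjusted p = 0.314). Sult1c1, Sult4a1 and Sult6b1 were below the filter, and their crosses overlapped on every probe set.

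Neighbouring genes were read to describe what was measured beside each member. For each member the 2 nearest genes of the fit on either side, outside the family, were taken from the RefSeq order, which gave 28 genes. Their log2 differences ran from -1.32 to 0.73 with a median of -0.05, 13 higher and 15 lower. Of these 28, 0 passed limma (smallest adjusted p = 0.472) and 1 had an unadjusted p under 0.05. That gene, Ugt2b38, a UDP-glucuronosyltransferase beside the Sult1 cluster of chromosome 5, was at -1.32 ± 0.50 (SE; limma adjusted p = 0.472). Its value turned on the AB6F1 mice: leaving out AB6F1 replicate 1 gave -0.52, whereas leaving out AB6F1 replicate 2 gave -2.12. Next to Sult2a2, Pla2g4c was at 0.37 ± 0.29 and Crxos at 0.73 ± 0.48. Around Sult3a1 the values were -0.12 ± 0.17 for Rnf217 and 0.37 ± 0.25 for Zup1, and around Sult5a1 they were -0.22 ± 0.20 for Spg7 and 0.23 ± 0.13 for Chmp1a. No measured neighbour of these 3 members had a difference of their size, but the members were chosen with these differences known. Whether a whole locus differed was not tested, as other family genes were left out and distances were not considered.

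**Figure D3:**
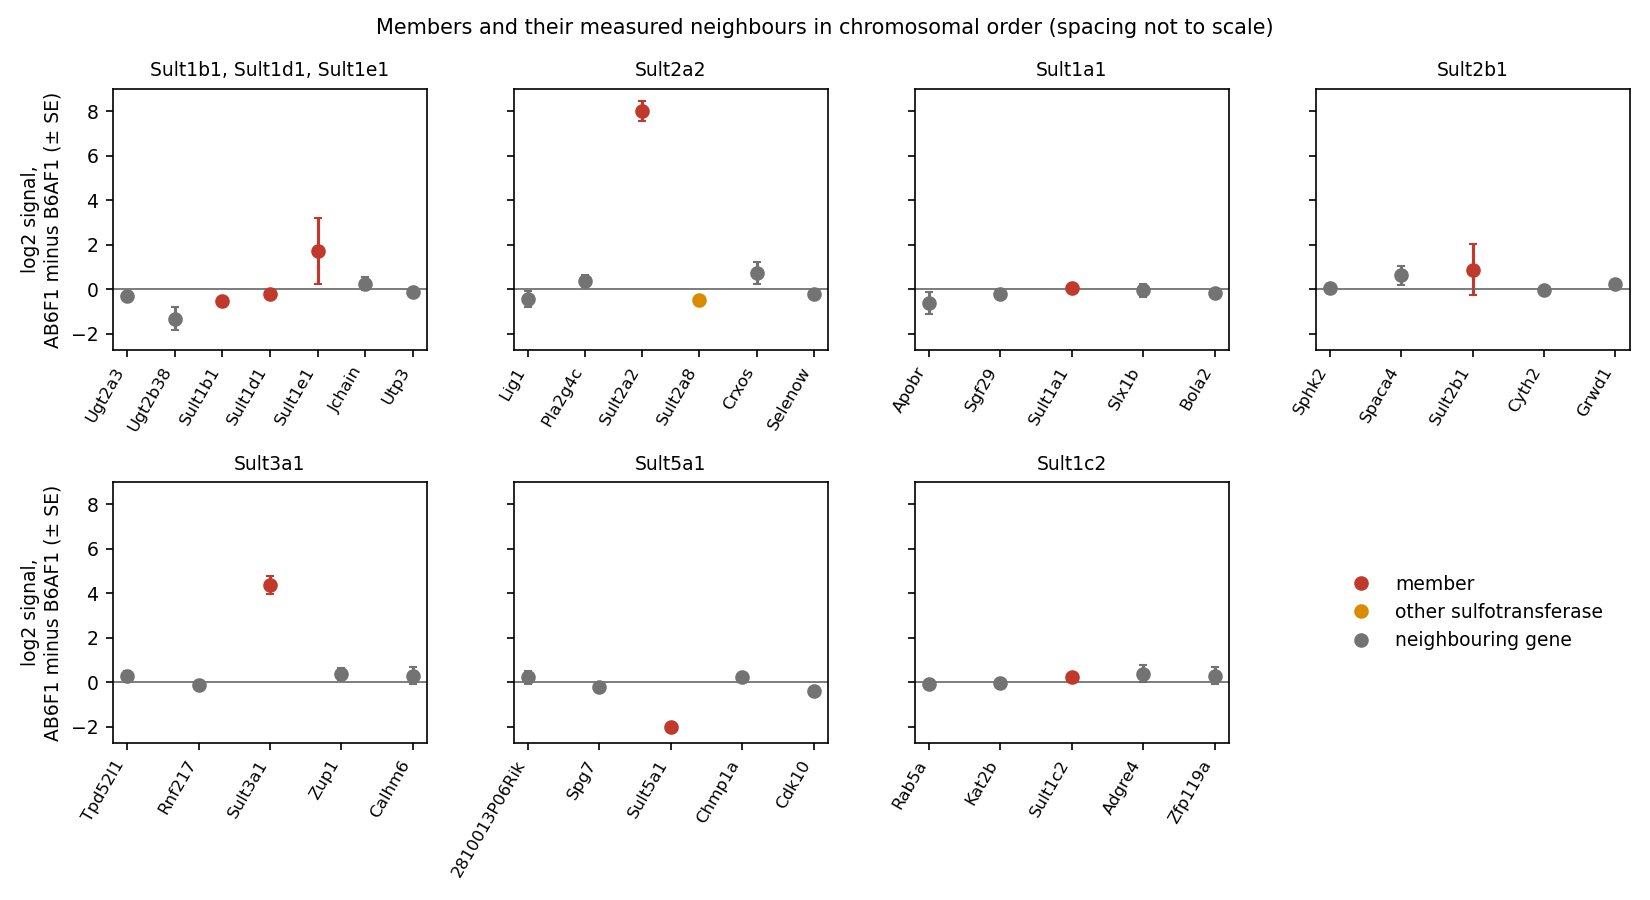
Log2 difference (AB6F1 minus B6AF1, bars are SE) for members in red, Sult2a8 in orange and the nearest measured genes in grey, each panel a locus with genes in chromosomal order and not to scale. Sult2a2 at 8.01, Sult3a1 at 4.39 and Sult5a1 at -2.03 stand away from neighbours that lie between -0.45 and 0.73.

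The genes whose profile over the 4 arrays was nearest to a called member were found by Euclidean distance of log2 signals centred on each gene's mean. Nearest to Sult5a1 were Cela1, an elastase, at a distance of 0.09, Cyp7b1, the oxysterol 7-alpha-hydroxylase, at 0.16, and Igfbp2, an IGF binding protein, at 0.36. Their log2 differences were -2.10 ± 0.13, -1.89 ± 0.13 and -2.03 ± 0.22 (SE), with limma adjusted p of 0.0043, 0.00679 and 0.024. Nearest to Sult3a1 were Slc39a5, a zinc transporter, at 0.96, and the cytochrome P450 Cyp2b13 and serum amyloid Saa2, both at 1.45. Slc39a5 signals were 297.0 and 230.7 in AB6F1, against 8.0 and 26.6 in B6AF1, where both lay below the filter signal. Its log2 difference of 4.17 ± 0.73 (SE) did not pass limma (adjusted p = 0.14) and was 3.12 with 16 added to every signal. No gene came close to Sult2a2. Slc39a5 and Cyp2b13 were at distances of 3.94 and 3.98, and Fxyd4, also below the filter signal in both B6AF1 mice, at 5.19. With 4 arrays such likeness reflects mainly the size of the difference between the crosses.

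No gene that provides the sulfonate donor passed the test. PAPS is made from sulfate and ATP by Papss1 and Papss2, its product is broken down by Bpnt1 and Bpnt2, and Slc35b2 and Slc35b3 carry it into the Golgi. Of these 6 genes, 0 passed limma over all genes, and the median log2 difference was -0.09. At an unadjusted p under 0.05 there was 1, or 16.7% beside 9.72% of all genes. Papss2, the main PAPS synthase of liver, had signals of 6444.4 and 7780.3 in AB6F1, against 7135.6 and 6711.9 in B6AF1, which overlap; AB6F1 minus B6AF1 was 0.03 ± 0.13 on the log2 scale (SE; limma adjusted p = 0.954). Papss1 was at 0.44 ± 0.19, Bpnt2 at 0.38 ± 0.13 and Slc35b3 at -0.41 ± 0.18 (SE), with limma adjusted p from 0.424 to 0.527.

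Sulfate itself comes from the diet and from the breakdown of cysteine. Of 18 genes of this supply, 14 were tested and 0 passed limma. Of the 14, 10 were lower in AB6F1, or 71.4% beside 46.5% of all genes. The median was -0.27 beside 0.02 over all genes. At an unadjusted p under 0.05 there were 7, all lower, which is 50% of the list beside 9.72% of all genes. The hepatocyte markers were also lower in AB6F1, by a median of -0.10, and the part of the hepatocyte share in these values was not tested. Cth, the cystathionine gamma-lyase that makes cysteine, had signals of 14246.3 and 23315.7 in AB6F1, against 28894.5 and 31065.9 in B6AF1. Both AB6F1 mice were lower, but they were 0.71 apart on the log2 scale, and the difference was -0.72 ± 0.22 (SE; limma adjusted p = 0.384). Suox, the sulfite oxidase that forms sulfate, was at -0.61 ± 0.21, and Csad, which turns cysteine sulfinate toward taurine, at -0.88 ± 0.27 (SE; limma adjusted p = 0.431 and 0.384). These sizes depended on single arrays: leaving out 1 array gave -0.36 to -1.07 for Cth, -0.29 to -0.92 for Suox and -0.48 to -1.29 for Csad. The smallest came without AB6F1 replicate 1 for Cth and Suox and without B6AF1 replicate 1 for Csad. The aspartate aminotransferase Got1 was at -0.64 ± 0.24 (SE). It was at -0.23 without AB6F1 replicate 1 and at -1.04 without AB6F1 replicate 2.

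Enzymes that remove sulfate or use PAPS in the Golgi were also without calls. Of 11 tested sulfatases and their activating enzymes, 0 passed limma and 0 had an unadjusted p under 0.05, with a median of -0.09; Sulf2 was at -0.39 ± 0.25, Galns at -0.42 ± 0.30 and Sgsh at 0.37 ± 0.28 (SE). The first 2 values each rested on 1 array: Sulf2 was at 0.01 without AB6F1 replicate 1 (and at -0.01 when probe sets with an _x_at or _s_at suffix were left out), and Galns at -0.01 without AB6F1 replicate 2. Of 18 tested Golgi sulfotransferases, 0 passed limma, 14 were higher and the median was 0.11. That is 77.8% higher, beside 53.5% of all genes. Ndst2 and Hs3st6, both counted as higher, were at 0.00, so the share rests partly on values near 0. It was not counted again after median centring, which moved the median of all genes from 0.02 to -0.11. At an unadjusted p under 0.05 there were 2, or 11.1% beside 9.72% of all genes. These 2 were Gal3st1, which makes sulfatide, at 0.91 ± 0.35, and the protein-tyrosine sulfotransferase Tpst1 at -0.46 ± 0.18 (SE; limma adjusted p = 0.472 and 0.487).

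Transcription factors and receptors known to act on liver sulfotransferase genes were listed as well. Of 28, 24 were tested, 0 passed limma, 5 had an unadjusted p under 0.05, and 15 were lower, with a median of -0.15. These are 20.8% at an unadjusted p under 0.05 and 62.5% lower, beside 9.72% and 46.5% of all genes, where the median was 0.02. Nr0b2, the nuclear receptor SHP induced by bile acids, had signals of 1336.2 and 3335.9 in AB6F1, against 4386.7 and 5111.3 in B6AF1. The AB6F1 mice were lower but 1.32 apart on the log2 scale. The difference of -1.17 ± 0.38 (SE) did not pass limma (adjusted p = 0.408). Its size depended on the AB6F1 mice, at -1.83 without AB6F1 replicate 2 and -0.51 without AB6F1 replicate 1. The nuclear receptor Nr5a2 was at -0.41 ± 0.12 and the co-regulator Trim24 at 0.60 ± 0.19 (SE; limma adjusted p = 0.384 each). The growth hormone receptor Ghr was at -0.29 ± 0.11 and its signal transducer Stat5b at -0.16 ± 0.15 (SE; limma adjusted p = 0.463 and 0.759). Signals of Bcl6, a repressor that is usually higher in male liver, were 716.3 and 474.5 in AB6F1, against 330.2 and 1941.7 in B6AF1. The B6AF1 mice spanned the AB6F1 mice, and the difference of -0.46 ± 0.72 (SE; limma adjusted p = 0.865) turned to 0.82 without B6AF1 replicate 2, so no direction is read. Cux2, a repressor usually restricted to female liver, also overlapped between the crosses, at 0.21 ± 0.23 (SE; limma adjusted p = 0.805), and was at 0.03 without AB6F1 replicate 1.

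**Figure D4:**
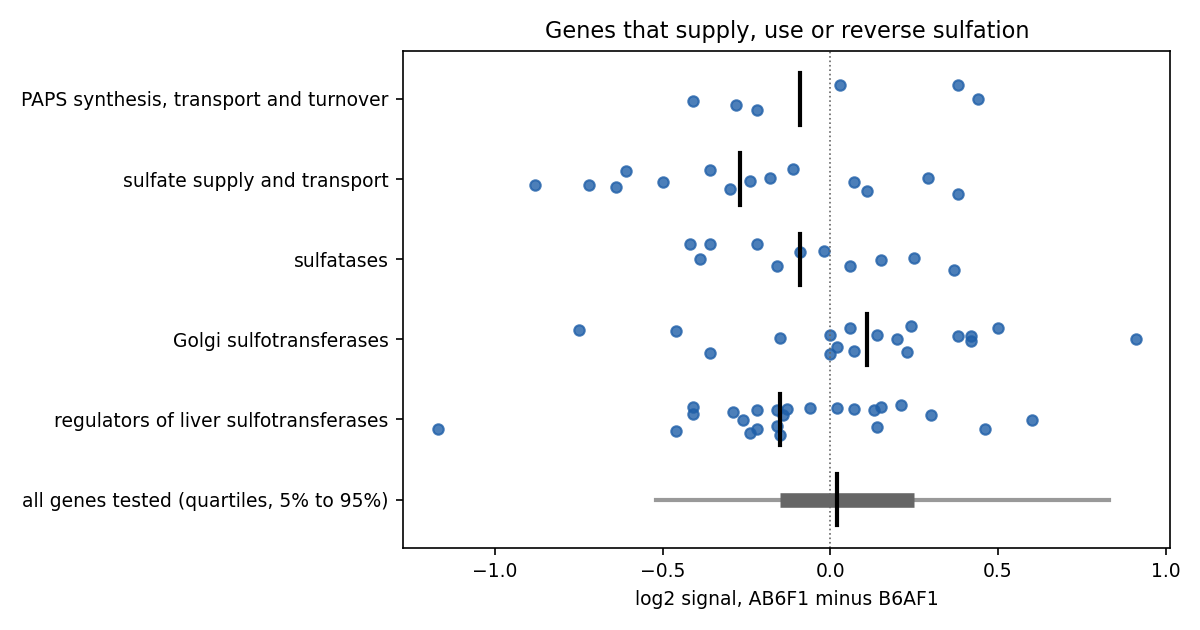
Log2 difference (AB6F1 minus B6AF1) of each tested gene of 5 lists around sulfation, 1 point per gene with the list's median as a black line, above the quartiles (box) and the 5% to 95% range (line) of all 11748 genes. The medians run from -0.27 for sulfate supply to 0.11 for Golgi sulfotransferases, and no point reaches the size of the differences of Sult2a2, Sult3a1 or Sult5a1.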

How the data were processed

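The authors deposited an intensity per probe set on a linear scale. The submitters' processing notes name MAS5 as its source, without a version. The trimmed mean of 500, without the lowest and highest 2% of probe sets, was read from the values. RNA was extracted with Trizol and hybridised as biotinylated cRNA, per the labels' protocols. Detection calls and scanner files were not used here, so a dim signal cannot be called absent. Ratios of dim MAS5 signals are noisy, and scaling hides a change shared by all transcripts.

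Of 45101 probe sets, 64 were controls and were left out, 34945 had 1 gene symbol, 932 several and 9160 none, per the platform annotation; 34741 symbols were matched to RefSeq (GRCm38.p6) by gene identifier. Each gene was read by its brightest probe set. The log2 signals of 11748 genes were fitted with limma 3.58.1 in R 4.3.3 (eBayes with an intensity trend, two-sided, Benjamini-Hochberg over all genes, threshold 0.05). In 20 simulated runs of this comparison over 11748 genes, 200 genes were changed and noise was drawn from the fitted variance model. Recovery was 31.9% for log2 changes of 1, 74.9% for 2, 85.7% for 4 and 86.5% for 8, and 4.19% of calls were false. These shares hold only under that model and are not error rates of the calls in the real data. The number of arrays limits the precision.

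The members, lists and alternatives were chosen with earlier results of these data known. The naming rule took all members and further cytosolic sulfotransferases with a probe set, the genes of each pathway list that passed or had the 3 smallest p, the 3 genes nearest each called member, Papss2 and Alb. Genes beside the members were chosen by position, and Got1, Ghr, Stat5b, Bcl6, Cux2 and the promoter motifs were chosen after the values were seen. Other settings tried were 3 normalizations between arrays (median centring, cyclic loess, quantile), an offset of 16 on the signal, the filter removed or set at the 75th percentile, dropping probe sets whose names end in _x_at or _s_at, variance moderation without the trend or made robust, a block for the replicate number, leaving out each array, using other probe sets and a threshold of 0.1.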

Additional observations from a re-analysis of the deposited data

How the results depend on the processing

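The 25 genes called by limma over the whole table became 50 after median centring, 0 without the intensity trend, 62 with the replicate block and 46 at a threshold of 0.1, and from 1 to 241 when 1 array was left out. Replicate numbers are only numbers here: the deviations of same-numbered mice correlated at -0.03 over genes, and the replicate block changed no call among the members or the pathway genes. The 3 called members became 0 without the intensity trend. The filter at the 75th percentile left Sult3a1 untested. The pathway genes had 0 calls in the main fit and in every other setting that used all 4 arrays. The cause of these changes was not tested. Under all alternatives run, Sult2a2, Sult3a1 and Sult5a1 kept the sign of their differences, as did Sult1b1, Sult1c2 and Sult1d1, whereas Sult1a1 did so in 12 of 14. Signals of Sult1e1, Sult2b1 and, in B6AF1, of Sult2a2 and Sult3a1 lie where MAS5 values are least certain.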
